A study of Mus musculus with 11 samples.

Results

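The genes described are the 8 that code for the IκB kinase (IKK) complex and the NF-κB subunits, taken by symbol from the 31053 genes of the count matrices. They are Ikbkb, Chuk and Ikbkg for the complex, and Nfkb1, Nfkb2, Rel, Rela and Relb for the subunits, and all 8 symbols were found. They were measured by single-nuclei RNA-seq of frozen cortex from 11 mice, with 1 library per mouse and 72007219 to 93205362 UMIs (unique molecular identifiers, 1 per captured RNA molecule) per library. The Ikbkb+/+ mice (n = 4) carried no tau transgene and were 9.8 to 10.85 months old, with replicates 1 and 2 from the floxed Ikbkb line and replicates 3 and 4 from the active IKKβ line. The Ikbkb+/+;P301S+ mice (n = 3, 9.15 to 10.75 months) also carried the PS19 transgene, human tau with the P301S mutation under the mouse prion promoter, and replicates 1 and 2 came from the floxed line and replicate 3 from the active line. The Ikbkb-/-;P301S+ mice (n = 2, 8.39 to 9.15 months, floxed line) carried P301S tau and floxed Ikbkb alleles deleted in cells that express Cx3cr1. The IkbkbCA;P301S+ mice (n = 2, 9.8 to 10.85 months, active line) carried P301S tau and a constitutively active IKKβ, inserted at the Rosa26 locus behind a floxed stop, that is expressed in the same cells.

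The Cre recombinase was a CreERT2 knocked into Cx3cr1, by the methods, so the allele with Cre lacks an intact Cx3cr1, and littermates without Cre were given tamoxifen too. By the methods the knockout and active IKKβ mice carried 1 such allele, and the Ikbkb+/+ and Ikbkb+/+;P301S+ mice carried none. Comparisons between these 2 sets of groups thus also differ in Cx3cr1 dose, whose part was not tested. Cx3cr1 is also expressed by other macrophages, so the alleles are not limited to microglia. Both knockout mice came from 1 breeding line and both active IKKβ mice from the other, so the 2 groups also differ in line, and a line effect could be estimated from the Ikbkb+/+ and P301S mice alone. The labels do not say which mice were littermates. In the active line, Ikbkb+/+ replicate 3 and active IKKβ replicate 1 were both 10.85 months old. Ikbkb+/+ replicate 4 and active IKKβ replicate 2 were both 9.8 months old. In the floxed line, P301S replicate 1 and knockout replicate 2 were both 9.15 months old. Ikbkb+/+ replicates 1 and 2 and P301S replicate 2 were all 10.03 months old. Pairing by equal age was not tested. The labels give all 11 mice as female, where the methods name male mice for RNA-seq. Xist, expressed from the inactive X chromosome of females, was at 795 to 1491 CPM in the 11 libraries and 4 genes of the Y chromosome summed to 1.11 to 1.76 CPM, as in females.

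NF-κB proteins are dimers that sit inactive in the cytoplasm, bound by IκB proteins or as precursors that carry an inhibitory domain of their own. In the canonical route IKKβ, with IKKα and the scaffold NEMO, phosphorylates IκB, which is then degraded, and RelA or c-Rel dimers enter the nucleus. In the non-canonical route the kinase NIK acts through IKKα to process the Nfkb2 product, which pairs with RelB. Several genes of the pathway, among them Relb, Nfkb1, Nfkb2, Nfkbia and Tnip1, are well-known targets of NF-κB itself. Microglia use the route to answer cytokines and microbial or damage signals.

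The genes lie at these places in the GENCODE M21 annotation of GRCm38 (mm10), and all are protein coding. Ikbkb spans chr8:22659212-22706589 on the minus strand, Chuk chr19:44073335-44107480 (minus) and Ikbkg chrX:74393290-74453854 (plus). Nfkb1 spans chr3:135584655-135691547 (minus), Nfkb2 chr19:46304320-46312385 (plus), Rel chr11:23736847-23770970 (minus), Rela chr19:5637483-5648130 (plus) and Relb chr7:19606217-19629438 (minus). Ikbkg overlaps G6pdx, Nfkb2 overlaps Psd and Ikbkb overlaps Gm15346, each on the opposite strand. How reads in these overlaps were assigned was not tested.

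Nuclei were typed by clustering without the 8 genes, which were not among the 2000 most variable genes in any case. Microglia-like nuclei numbered 4492 of 103065 (193 to 733 per mouse), gave 387450 to 1637172 UMIs per mouse, and held the highest level of 12 of the 12 microglial markers among the types. The dissection was labelled cortex, yet 9628 nuclei carried striatal projection neuron markers, 9 of 9 of which were highest there. Of the barcode sequences, 1599 occurred in more than 1 library (15 to 45 per pair of libraries). The summed microglial markers were 10635 to 12468 CPM (counts-per-million, UMIs of a gene scaled to the summed UMIs of these nuclei) in Ikbkb+/+ mice, 10932 to 11614 in Ikbkb+/+;P301S+, 10314 to 11559 in Ikbkb-/-;P301S+ and 9057 to 10331 in IkbkbCA;P301S+ mice, all 12 above 0 in each mouse. Excitatory neuron markers (9 genes) in the same nuclei summed to 522 to 524 CPM in the knockout mice and 337 to 505 CPM in the other 9 mice. Astrocyte markers (9 genes) stood at 604 to 621 CPM in the knockout mice and 437 to 581 CPM in the others, and fibroblast-like markers (7 genes) at 17.1 to 18.5 and 6.07 to 16.6 CPM. In knockout and P301S mice, striatal projection neuron markers (9 genes) were at 395 to 412 and 274 to 293 CPM. Inhibitory neuron markers (11 genes) were at 500 to 504 and 397 to 475 CPM in the same order. T and NK cell markers (7 genes) went the other way, at 4.11 to 27.6 and 28.0 to 66.6 CPM. Border macrophage markers (7 genes) ranged from 16.7 to 437 CPM among the Ikbkb+/+ mice and from 61.7 to 312 CPM among the rest. The part of these lists in the results below was not tested.

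The gene targeted in the study, Ikbkb, codes for IKKβ, the catalytic subunit of the canonical route. In microglia-like nuclei its level was 154, 123, 143 and 135 CPM in the 4 Ikbkb+/+ mice, 152, 133 and 140 CPM in the 3 Ikbkb+/+;P301S+ mice, 110 and 113 CPM in the 2 Ikbkb-/-;P301S+ mice, and 166 and 150 CPM in the 2 IkbkbCA;P301S+ mice. Both knockout mice were below the other 9 without overlap, but 0.785 of the mean CPM of the Ikbkb+/+;P301S+ mice remained. Neither the difference between these groups (log2 fold change -0.33 ± 0.17 SE, adjusted p = 0.590, edgeR quasi-likelihood) nor that between active IKKβ and P301S mice (0.15 ± 0.15, adjusted p = 0.944) passed the test. Active IKKβ mice lay 0.48 ± 0.17 above the knockout mice on the log2 scale, which did not pass either (adjusted p = 0.198). Counts cover the whole gene including introns, so loss of 1 exon is not read from them, and how many reads of the inserted copy are counted as Ikbkb was not tested.

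**Figure D1:**
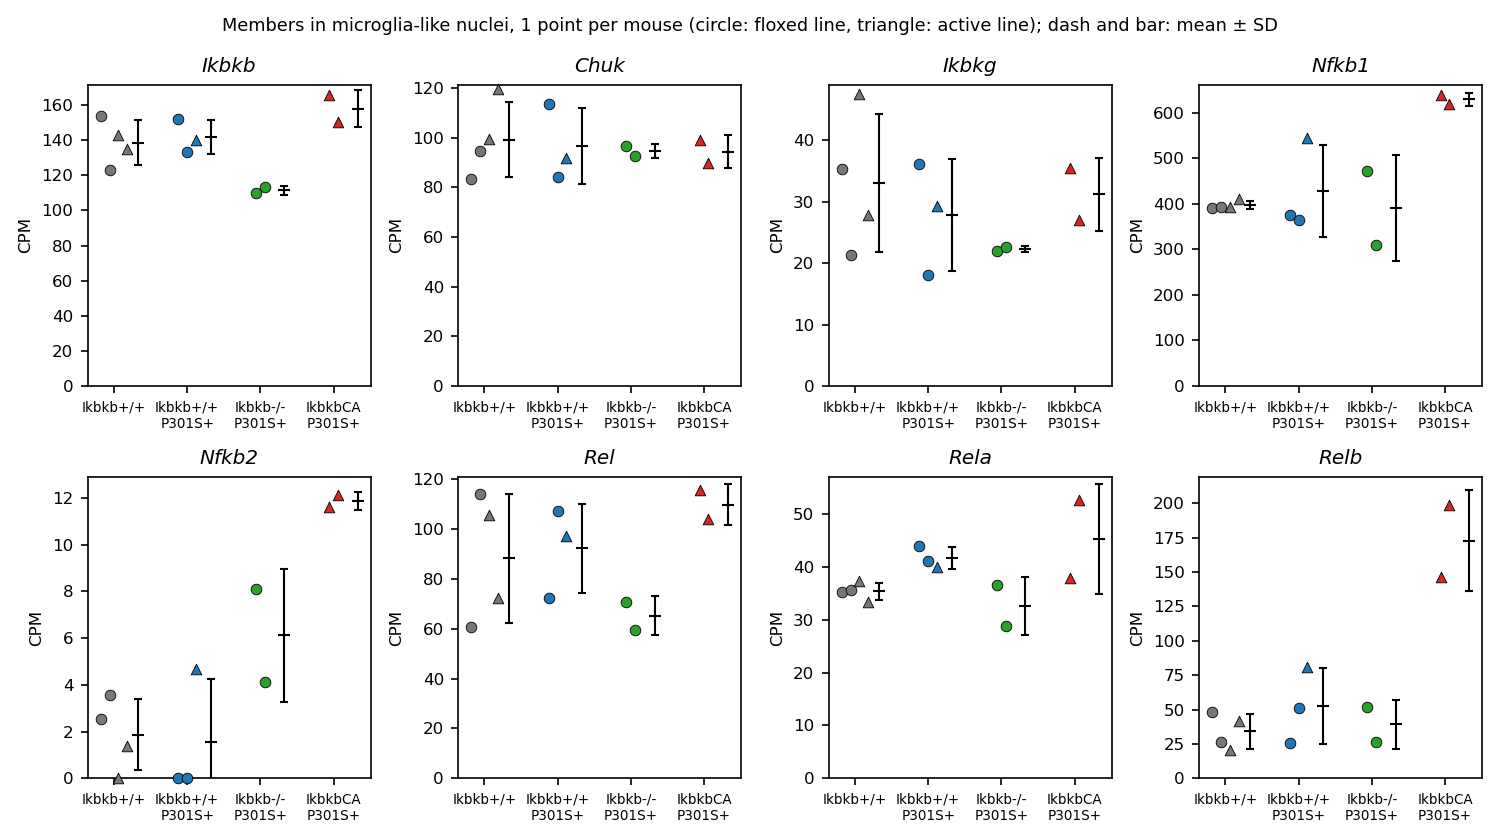
Level of each of the 8 genes in microglia-like nuclei (CPM of the summed counts, linear axes from 0), 1 point per mouse by genotype, circles for the floxed and triangles for the active line, with the mean and SD at the side. Relb, Nfkb1 and Nfkb2 of both IkbkbCA;P301S+ mice lie above all other mice, and both Ikbkb-/-;P301S+ mice are lowest for Ikbkb. How many of all genes show such gaps was not counted.

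Chuk and Ikbkg, the other members of the complex, did not pass the test in any comparison in microglia-like nuclei. Chuk, which codes for IKKα, was at 83.3, 94.5, 99.4 and 119 CPM in Ikbkb+/+ mice, 114, 84.0 and 92.0 CPM in Ikbkb+/+;P301S+ mice, 96.7 and 92.5 CPM in knockout mice, and 99.0 and 89.7 CPM in active IKKβ mice. These groups overlapped in every pairing, and the 3 main log2 fold changes lay between -0.11 (P301S) and 0.02 (knockout). Ikbkg, which codes for NEMO, the scaffold without kinase activity, was at 35.3, 21.4, 47.6 and 27.8 CPM in Ikbkb+/+ mice, 36.1, 18.1 and 29.3 CPM in Ikbkb+/+;P301S+ mice, 21.9 and 22.6 CPM in knockout mice, and 35.4 and 27.0 CPM in active IKKβ mice. It rested on 11 to 58 UMIs per mouse, and its log2 fold changes were -0.26 ± 0.30 for P301S, -0.29 ± 0.35 for the knockout and 0.17 ± 0.30 for active IKKβ (adjusted p of 0.879, 0.830 and 0.983).

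Of the 7 members that passed the filter on low counts, Relb had the largest log2 fold changes with active IKKβ. Its product, RelB, is the partner of processed Nfkb2 in the non-canonical route. In microglia-like nuclei Relb was at 48.0, 26.7, 20.7 and 41.7 CPM in Ikbkb+/+ mice, 25.8, 51.0 and 80.6 CPM in Ikbkb+/+;P301S+ mice, 51.99 and 26.7 CPM in Ikbkb-/-;P301S+ mice, and 147 and 199 CPM in IkbkbCA;P301S+ mice. Both active IKKβ mice were above all 9 others, and the other 3 groups overlapped. Relb rose in active IKKβ mice by 1.53 ± 0.28 on the log2 scale against P301S mice (2.88-fold, adjusted p = 0.00313), by 2.29 ± 0.29 against Ikbkb+/+ mice (4.91-fold, adjusted p = 3.94e-05) and by 1.97 ± 0.33 against knockout mice (3.92-fold, adjusted p = 0.00129).

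The Relb rise against P301S mice passed without any of the 3 P301S mice. The highest of them, 80.6 CPM in replicate 3, was the active-line mouse, and against this mouse alone, with the spread taken from the other groups, the log2 fold change was 1.11 with an adjusted p of 0.123 (range over all alternatives other than leaving out a mouse, 6.39e-11 to 0.123). Without IkbkbCA;P301S+ replicate 2 it was 1.28 (adjusted p = 0.0594), and over all 11 fits that left out a mouse it lay between 1.28 and 2.06. Against Ikbkb+/+ mice the rise passed under every alternative run. Against knockout mice it missed with breeding line as a covariate (1.4995, adjusted p = 0.229) and with age as a covariate (2.00, adjusted p = 0.130). The P301S difference itself, 0.77 ± 0.31, did not pass (adjusted p = 0.509) and was 0.24 without replicate 3. The knockout difference was -0.44 ± 0.34 (adjusted p = 0.710), and it turned to 0.08 without that replicate.

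Nfkb1, the precursor of the DNA-binding partner of RelA and c-Rel, was also highest with active IKKβ. It stood at 391, 392, 393 and 410 CPM in Ikbkb+/+ mice, 374, 364 and 543 CPM in Ikbkb+/+;P301S+ mice, 473 and 308 CPM in knockout mice, and 639 and 619 CPM in active IKKβ mice. The non-transgenic mice were close together, the active IKKβ mice did not overlap with any group, and P301S replicate 3 was again the highest of its group. Against Ikbkb+/+ mice Nfkb1 rose by 0.63 ± 0.16 on the log2 scale (1.54-fold, adjusted p = 0.0282). Against P301S mice the difference was 0.52 ± 0.17 and did not pass (adjusted p = 0.171), and against knockout mice it was 0.63 ± 0.19 (adjusted p = 0.0938). The comparison with P301S mice passed without P301S replicate 3 (0.74, adjusted p = 0.0162) and with no filter on counts (0.55, adjusted p = 0.02497), and that with knockout mice passed without this mouse, without knockout replicate 1 or with no filter (adjusted p of 0.00930 to 0.03696). With line as a covariate these differences were 0.39 (adjusted p = 0.651) and 0.39 (0.638), and against the active-line P301S mouse alone, whose spread the other groups supply, the first was 0.22 (0.968). The call against Ikbkb+/+ mice was lost in 5 of the 11 fits that left out a mouse (without Ikbkb+/+ replicate 1, 2 or 3 or either active IKKβ mouse, adjusted p of 0.0628 to 0.159), with line as a covariate (0.51, adjusted p = 0.144) and with doublets kept (0.59, adjusted p = 0.0527).

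Nfkb2, the precursor processed in the non-canonical route, was scarce and did not pass the filter on low counts. Its UMIs numbered 1, 2, 0 and 1 in Ikbkb+/+ mice, 0, 0 and 7 in Ikbkb+/+;P301S+ mice, 10 and 2 in knockout mice, and 19 and 18 in active IKKβ mice. Summed over each group this gave 1.85 CPM (exact Poisson 95% interval 0.505 to 4.74, counting error only) in Ikbkb+/+, 2.81 (1.13 to 5.78) in Ikbkb+/+;P301S+, 6.99 (3.61 to 12.2) in knockout and 11.9 (8.35 to 16.3) in active IKKβ mice. The active IKKβ mice, at 11.6 and 12.1 CPM, were above the other 9, of which knockout replicate 1 came nearest at 8.12 CPM. With no filter on counts the edgeR log2 fold change was 2.12 ± 0.62 for active IKKβ against P301S mice (adjusted p = 0.0393), 2.61 against Ikbkb+/+ mice (adjusted p = 0.00705) and 1.33 for the knockout (adjusted p = 0.837). Active IKKβ against knockout mice did not pass (0.79 ± 0.59, adjusted p = 0.859).

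Rel and Rela, which code for the transactivating subunits c-Rel and RelA, did not pass the test. Rel was at 60.6, 114, 106 and 72.2 CPM in Ikbkb+/+ mice, 72.3, 107 and 97.3 CPM in Ikbkb+/+;P301S+ mice, 70.7 and 59.6 CPM in knockout mice, and 115 and 104 CPM in active IKKβ mice. The knockout mice lay under all P301S mice, with a log2 fold change of -0.49 ± 0.24 (adjusted p = 0.560), and active IKKβ mice differed from them by 0.69 ± 0.24 (adjusted p = 0.171). Rela was at 35.3, 35.7, 37.3 and 33.3 CPM in Ikbkb+/+ mice, 43.9, 41.2 and 40.0 CPM in Ikbkb+/+;P301S+ mice, 36.6 and 28.8 CPM in knockout mice, and 37.9 and 52.6 CPM in active IKKβ mice. The P301S mice lay above the Ikbkb+/+ mice without overlap by 0.20 ± 0.22 on the log2 scale (adjusted p = 0.877), and the knockout difference was -0.26 ± 0.25 (adjusted p = 0.790).

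A member was called at an adjusted p under 0.05, over all 8945 genes tested, with an absolute log2 fold change over 0.1, and 7 of the 8 members were tested. In the P301S comparison 0 of the 7 were called, where 0.0335% of all genes tested were, and 1 member (Relb) had an unadjusted p under 0.05, as 8.24% of all genes did. In the knockout comparison 0 members were called, where 0% of all genes were although 808 had an unadjusted p under 0.05, and of knockout against Ikbkb+/+ mice 0 members and 0% of genes were called (413 unadjusted). With DESeq2 0 members were called in these 3 comparisons. In active IKKβ against P301S mice 1 of 7 was called, where 1.48% of genes were, against Ikbkb+/+ mice 2 of 7, where 3.53% were, and against knockout mice 1 of 7, where 1.72% were. These comparisons share the active IKKβ mice, and DESeq2 gave 1, 2 and 1, with no share of all genes set beside these counts. For how many of all genes tested both active IKKβ or both knockout mice lay beyond every other mouse was not counted. The gaps without overlap given above, and those of pathway genes given below, therefore describe single genes.

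**Figure D2:**
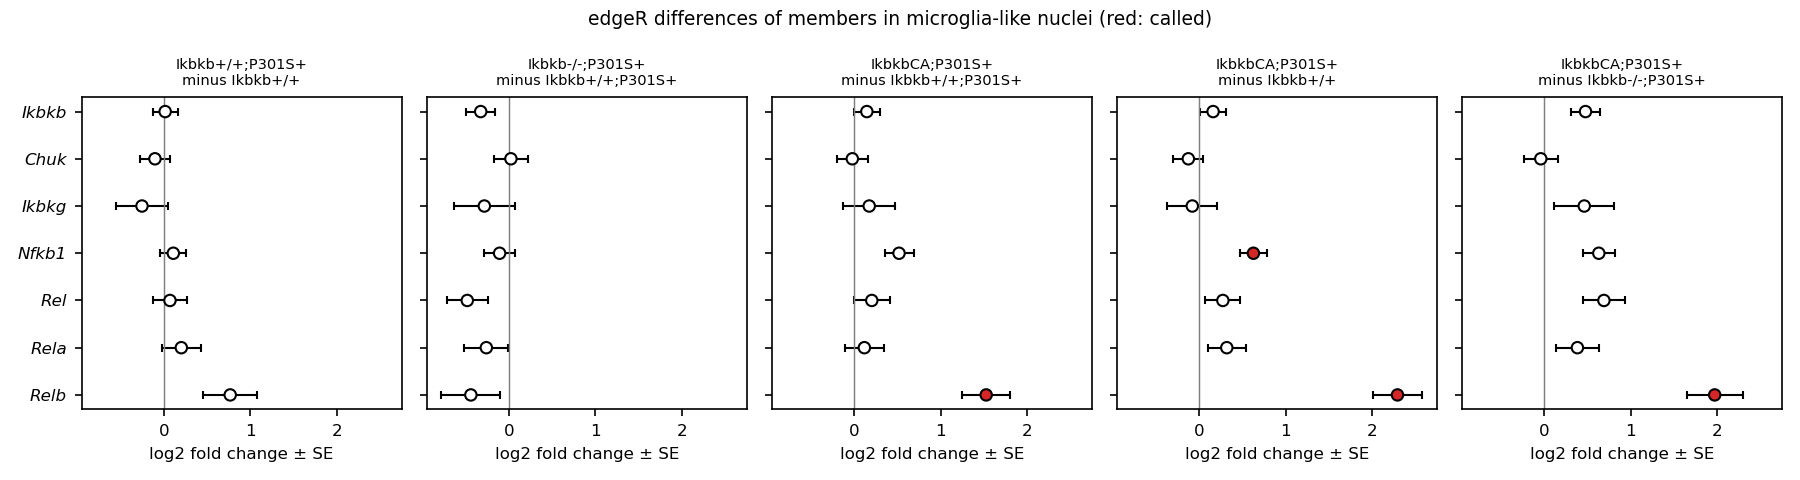
Log2 fold change ± SE (edgeR) of the 7 members tested in microglia-like nuclei for 5 comparisons, filled red where called. Relb is red in the 3 panels with active IKKβ mice and Nfkb1 in the panel against Ikbkb+/+ mice, and the P301S and knockout panels hold no red point.

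The share of microglia-like nuclei with at least 1 UMI, which like a summed level rises both with more nuclei that hold the RNA and with more RNA per nucleus, was taken after each nucleus was thinned to 1000 UMIs, which left out 0 to 3.82% of nuclei of a mouse. Relb was seen in 4.39, 2.78, 2.65 and 3.32% of nuclei in Ikbkb+/+ mice, 2.38, 3.72 and 7.03% in Ikbkb+/+;P301S+ mice, 5.34 and 2.13% in knockout mice, and 14.0 and 15.2% in active IKKβ mice. The active IKKβ mice exceeded P301S mice by 10.2 percentage points on average, and a two-sided exact permutation test, which doubles the smaller tail, gave p = 0.2, the smallest it allows with 3 against 2 mice. Unthinned the difference was 23.5 points, where shares also follow depth. The median UMIs per nucleus were 2320 to 2468 in active IKKβ and 1440 to 2021 in P301S mice. Nfkb1 was seen in 31.2 ± 1.83% of nuclei in Ikbkb+/+ mice (SD, n = 4) and 44.8 ± 0.530% in active IKKβ mice (n = 2), with 33.8 ± 5.83% for P301S (n = 3) and 31.9 ± 8.24% for the knockout (n = 2). In excitatory neuron-like nuclei thinned alike, 0.493% held Relb and 7.87% Nfkb1. Over 48 share comparisons (8 genes, 6 comparisons) the lowest adjusted exact permutation p was 0.738, and with the smaller tail doubled this test could not have passed at these numbers of mice.

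The other 61 genes of the pathway list, of which 51 could be tested, fell into 6 roles, and were set beside the members. In active IKKβ against P301S mice 8 rose and 1 fell, against Ikbkb+/+ mice 11 rose and 0 fell, and against knockout mice 9 rose and 1 fell, with the background shares given above. By their levels, Nfkbie, Bcl3 and Ikbke passed the filter on low counts only with the active IKKβ mice. The counts of genes that rose are therefore conditional on a high level in these mice. In the P301S, knockout, and knockout against Ikbkb+/+ comparisons 0 of 51 were called, by edgeR and by DESeq2. The median log2 fold change of the 51 was 0.12 for active IKKβ against P301S mice, 0.08 for P301S and -0.25 for the knockout, where all genes tested had medians of -0.01 in each. In the knockout comparison 14 of the 51 lay above 0, against 48.6% of all genes tested, and in the P301S comparison 31 did, against 48.5%. Both comparisons share the P301S mice, with opposite sign. Of knockout against Ikbkb+/+ mice 20 of the 51 lay above 0 (median -0.06), against 49.5% of all genes tested.

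The IκB proteins, which hold NF-κB in the cytoplasm or, as Bcl3, bind it in the nucleus, were among the genes that rose. Of 4 tested, 2 rose in active IKKβ against P301S mice, 3 against Ikbkb+/+ mice and 0 in the knockout comparison, where all 4 lay below 0. Nfkbie (IκBε) was at 7.57, 16.04, 6.21 and 9.73 CPM in Ikbkb+/+ mice, 7.74, 11.5 and 9.33 CPM in P301S mice, 12.2 and 2.06 CPM in knockout mice, and 31.8 and 33.03 CPM in active IKKβ mice (log2 fold change against P301S 1.72, adjusted p = 0.0266). Bcl3 was at 0 to 5.35 CPM in Ikbkb+/+ mice, 1.65 to 4.66 CPM in P301S mice, 2.44 and 2.06 CPM in knockout mice, and 18.3 and 20.2 CPM in active IKKβ mice (2.40, adjusted p = 0.0240). In both genes the active IKKβ mice stood apart from all others, from low counts. By these levels both genes passed the filter on low counts only with the active IKKβ mice, the group in which they were called higher. The call against P301S mice was lost for Nfkbie without any of the 3 P301S mice or either active IKKβ mouse (adjusted p of 0.0622 to 0.145), and for Bcl3 without P301S replicate 1 or 2 or either active IKKβ mouse (0.0544 to 0.224). Neither gene passed with DESeq2 (adjusted p of 0.160 for Nfkbie and 0.190 for Bcl3) or with line as a covariate (0.0521 and 0.109), and Nfkbie missed with doublets kept (0.112). Nfkbia, which codes for IκBα, was at 7.57, 3.56, 24.8 and 8.34 CPM in Ikbkb+/+ mice, 20.7, 4.94 and 20.7 CPM in P301S mice, 12.997 and 2.06 CPM in knockout mice, and 40.9 and 55.3 CPM in active IKKβ mice. It rose against Ikbkb+/+ mice (2.11, adjusted p = 0.00829) and knockout mice (2.29, adjusted p = 0.0219) and missed the threshold against P301S mice (1.55, adjusted p = 0.0781). The call against Ikbkb+/+ mice was lost without active IKKβ replicate 2 (adjusted p = 0.0833) and with controls of the same line (0.0695), and that against knockout mice without this mouse or either knockout mouse (0.0570 to 0.188), with line as a covariate (1.20, adjusted p = 0.677), with age as a covariate (0.504) and with doublets kept (0.0612). Nfkbib was at 0 to 8.23 CPM over the 11 mice.

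Of 8 negative regulators tested, Tnip1 rose in active IKKβ mice against each other group. Its product, ABIN1, binds ubiquitin chains and the deubiquitinase encoded by Tnfaip3. Tnip1 was at 22.7, 17.8, 39.3 and 26.4 CPM in Ikbkb+/+ mice, 30.97, 24.7 and 46.6 CPM in P301S mice, 32.5 and 16.4 CPM in knockout mice, and 155 and 162 CPM in active IKKβ mice. Its log2 fold change against P301S mice was 2.08 ± 0.24 (adjusted p = 1.96e-05), and this call held under all alternatives and with any mouse left out. Tnfaip3 (0.71, adjusted p = 0.641) and the deubiquitinase gene Cyld (0.29, adjusted p = 0.727) did not pass. Nlrc5, a regulator of MHC class I genes, passed against Ikbkb+/+ mice (2.64, adjusted p = 0.00703) but not without active IKKβ replicate 2 (2.28, adjusted p = 0.0660) or with DESeq2 (2.59, adjusted p = 0.2098). Its P301S difference was 1.99 (adjusted p = 0.239), with P301S replicate 3 at 79.3 CPM and the others of its group at 15.5 and 14.8 CPM. In the knockout comparison 0 of the 8 regulators lay above 0 (median -0.28), and in the P301S comparison all 8 did (median 0.38), with the P301S mice shared by both. Of knockout against Ikbkb+/+ mice 5 of the 8 lay above 0 (median 0.05).

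Among adaptors and ubiquitin ligases 3 of 18 tested rose in active IKKβ against P301S mice, and these and Irak2 rose against Ikbkb+/+ mice. Birc3, a ubiquitin ligase that restrains NIK, was at 70.7, 42.8, 39.3 and 63.9 CPM in Ikbkb+/+ mice, 43.9, 54.3 and 82.0 CPM in P301S mice, 55.2 and 37.0 CPM in knockout mice, and 173 and 160 CPM in active IKKβ mice (log2 fold change 1.35, adjusted p = 0.00129). Traf3, which brings NIK to this ligase, was at 237, 146, 164 and 235 CPM, then 165, 206 and 310 CPM, then 275 and 191 CPM, and 531 and 546 CPM in the same order of groups (1.18, adjusted p = 0.00267). The active IKKβ mice lay above all others for both genes, a gap that was not counted over all genes. Traf2, a partner of Traf3, rose by 1.11 (adjusted p = 0.0252), with 56.8 and 53.9 CPM in active IKKβ and 16.04 to 31.3 CPM in the other mice, and lost its call with DESeq2 (adjusted p = 0.178), with line as a covariate (0.160), in a fit of these groups alone (0.0505) or if P301S replicate 1 or 2 or either active IKKβ mouse was left out (0.0622 to 0.154). Irak2, a signalling kinase of the interleukin-1 and Toll-like receptors, was at 338 to 406 CPM in Ikbkb+/+ mice, 436 to 566 CPM in P301S mice, 405 and 499 CPM in knockout mice, and 494 and 589 CPM in active IKKβ mice. Its rise against Ikbkb+/+ mice (0.51, adjusted p = 0.0463) was lost in 7 of the 11 fits that left out a mouse, with line as a covariate (adjusted p = 0.128) and with doublets kept (0.105). Map3k14, which codes for NIK, had a log2 fold change of -0.28 (adjusted p = 0.717).

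Of 10 other kinases and their adaptors, 2 rose in active IKKβ against P301S mice. Tank, an adaptor of the IKK-related kinases, was at 45.4, 73.1, 68.3 and 72.3 CPM in Ikbkb+/+ mice, 103, 97.1 and 139 CPM in P301S mice, 80.4 and 63.7 CPM in knockout mice, and 312 and 279 CPM in active IKKβ mice. Its log2 fold change was 1.32 ± 0.17 (adjusted p = 0.000126) and was called under all alternatives and with any mouse left out, while the P301S difference of 0.80 did not pass (adjusted p = 0.106). Ikbke, which codes for the IKK-related kinase IKKε, was at 0, 5.35, 0 and 1.39 CPM, then 0, 4.94 and 17.3 CPM, then 8.12 and 2.06 CPM, and 26.9 and 71.5 CPM in the same order of groups (2.17, adjusted p = 0.0349). By these levels Ikbke passed the filter on low counts only with the active IKKβ mice. It missed if P301S replicate 1 or 2 or active IKKβ replicate 2 was left out (adjusted p of 0.0784 to 0.690), with doublets kept (0.0585), in a fit of these groups alone (0.0606), with line as a covariate (1.71, adjusted p = 0.306) and with DESeq2 (0.882).

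Of 6 receptors tested, 1 fell in active IKKβ mice. This was Tnfrsf11a, which codes for the receptor RANK. It was at 300.3, 280, 232 and 190.3 CPM in Ikbkb+/+ mice, 271, 333 and 295 CPM in P301S mice, 344 and 296 CPM in knockout mice, and 175 and 201 CPM in active IKKβ mice, which overlapped with the Ikbkb+/+ mice alone. It fell by 0.70 on the log2 scale against P301S mice (adjusted p = 0.0483) and by 0.81 against knockout mice (adjusted p = 0.0236). The first call was lost in 8 of the 11 fits that left out a mouse and the second in 3, and both were lost with line or age as a covariate and with doublets kept. Of 5 genes for IκB degradation 0 were called in any comparison. Against the active-line P301S mouse alone, which gives no spread of its own so that the other groups supply it, 2 of the 8 pathway genes were called, Tnip1 (1.77, adjusted p = 0.000694) and Tank (1.10, adjusted p = 0.00863). With line as a covariate 4 pathway genes were called higher, and with DESeq2 4. The shares of all genes called in these fits were not set beside these counts. The summed microglial markers were lower in the active IKKβ mice (9057 to 10331 CPM) than in the P301S mice (10932 to 11614 CPM). In the same nuclei striatal projection neuron markers (9 genes) summed to 450.2 to 469.9 CPM in active IKKβ and 274 to 293 CPM in P301S mice, and fibroblast-like markers (7 genes) to 6.07 to 6.72 and 10.3 to 12.7 CPM, and the part of the 3 lists in these differences was not tested.

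**Figure D3:**
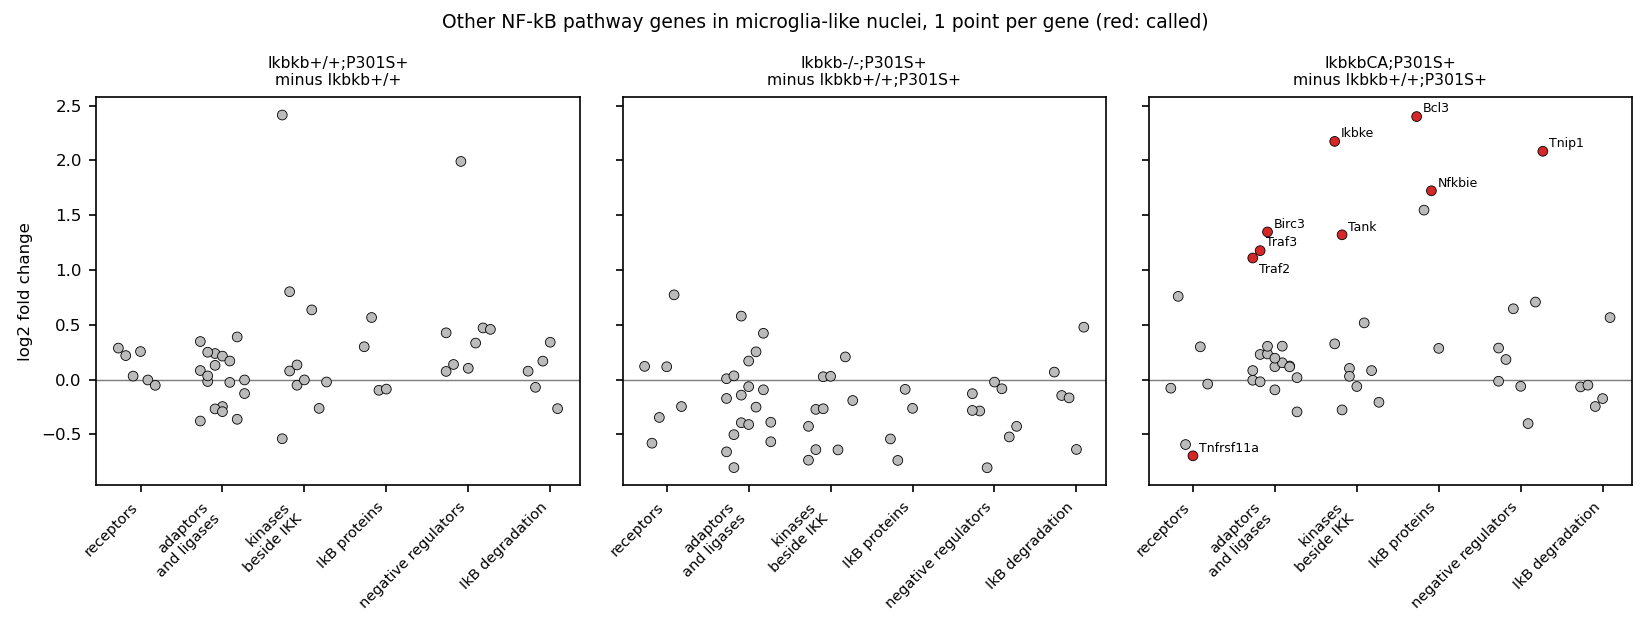
Log2 fold change (edgeR) of the 51 pathway genes tested in microglia-like nuclei by role for 3 comparisons, 1 point per gene, red where called. The red points, 8 above and 1 below 0, are all in the panel of active IKKβ against P301S mice. Above 0 lie 14 of 51 points of the knockout panel and 31 of the P301S panel, which share the P301S mice.

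The levels of the 8 genes across cell types were compared within mice. Of the 8 genes, 7 had their highest mean in microglia-like nuclei among the 7 types with the most nuclei, and Chuk had its highest in oligodendrocyte-like nuclei. How many of all genes were highest in microglia-like nuclei was not counted, so this describes single genes. Neighbours in the order of mean log2 CPM were compared by an exact sign-flip permutation test over the 11 mice (two-sided, smallest p 0.000977). The p-values were adjusted over 48 pairs, of which 23 passed, and how often neighbours pass over all genes was not counted. The order was taken from the same values, so the pairs and the direction of each were not fixed beforehand. Other pairs of types were not tested. Each level below is in CPM of the type's own UMIs and was compared within 1 gene. Median UMIs per nucleus of a mouse were 1440 to 2468 in microglia-like and 9020 to 14555 in excitatory neuron-like nuclei. A higher CPM is thus a higher share of a type's UMIs, and UMIs of a gene per nucleus were not compared.

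Ikbkb lay between 110 and 166 CPM (median 140) in microglia-like nuclei and between 60.9 and 81.4 CPM (median 74.8) in oligodendrocyte-like nuclei, the next type. The ratio of means was 1.87, microglia-like nuclei were higher in 11 of 11 mice (adjusted exact permutation p = 0.00313), and the lowest level was in striatal-like nuclei, with a mean of 34.7 CPM. Astrocyte-like (65.02 CPM), OPC-like (oligodendrocyte precursor, 56.4), excitatory (46.5) and inhibitory neuron-like nuclei (46.6) lay between, and the last pair did not differ beyond its spread (adjusted p = 0.971, exact permutation). Ikbkg lay between 18.1 and 47.6 CPM (median 27.8) in microglia-like and between 12.5 and 19.8 CPM (median 16.2) in astrocyte-like nuclei, the next type (higher in 11 of 11 mice). Among all 7 types, microglia-like nuclei were highest for Ikbkg in 10 of 11 mice. Astrocyte and oligodendrocyte-like nuclei did not differ (adjusted p = 0.713, exact permutation), nor did inhibitory, OPC and striatal-like nuclei from their neighbours among them.

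Chuk took the other order. It lay between 102 and 114 CPM (median 105.35) in oligodendrocyte-like and between 83.3 and 119 CPM (median 94.5) in microglia-like nuclei, lower in 9 of 11 mice (adjusted exact permutation p = 0.0234). The lowest mean, 64.2 CPM, was that of inhibitory neuron-like nuclei. Excitatory, OPC and striatal-like nuclei did not differ from their neighbours among them.

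Rel had the largest ratio of the 8 genes between microglia-like nuclei and the next mean among the 7 types compared, 10.8. It lay between 59.6 and 115 CPM (median 97.3) in microglia-like nuclei, and the highest value of a mouse in the other 6 types was 12.4 CPM, with means of 6.33 to 8.22 CPM. Among these 6 types no neighbouring pair differed beyond its spread (adjusted exact permutation p of 0.713 to 0.9902). Relb lay between 20.7 and 199 CPM (median 48.0) in microglia-like and between 7.78 and 16.3 CPM (median 11.2) in oligodendrocyte-like nuclei, with means in neurons of 4.04 to 5.40 CPM. Its mean in microglia-like nuclei was 5.52 times that of the next type, and the 2 active IKKβ mice are part of this mean.

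Nfkb1 lay between 308 and 639 CPM (median 393) in microglia-like nuclei and between 175 and 213 CPM (median 186) in astrocyte-like nuclei, a ratio of means of 2.35. From there the order fell through OPC-like (154 CPM), inhibitory (121), striatal (95.5), oligodendrocyte (92.1) and excitatory neuron-like nuclei (83.7), and each step but that from striatal to oligodendrocyte-like nuclei passed the test. Rela lay between 28.8 and 52.6 CPM (median 37.3) in microglia-like and between 15.2 and 21.5 CPM (median 18.3) in oligodendrocyte-like nuclei, 2.15 times apart in the mean. The other 5 types had means of 11.2 to 16.2 CPM, and only the lowest step, from excitatory to striatal-like nuclei, passed among them. Nfkb2 had a mean of 4.37 CPM in microglia-like and 0.559 CPM in astrocyte-like nuclei, a step seen in 8 of 11 mice that did not pass (adjusted p = 0.0788, exact permutation).

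Types of the vasculature were left out of these tests, since they held 443 (endothelial-like), 591 (mural-like) and 981 (fibroblast-like) nuclei. For several members the mean levels in some of these types exceeded those of the other non-microglial types. Among the means given below, exceptions were Nfkb1 in mural-like nuclei (astrocyte-like mean 190 CPM) and Ikbkb in fibroblast-like nuclei (oligodendrocyte-like mean 74.0 CPM). With UMIs pooled over the mice, Chuk stood at 92.6, 92.3 and 96.8 CPM in endothelial, mural and fibroblast-like nuclei, under 106 CPM in oligodendrocyte-like nuclei. Ikbkg, pooled alike, stood at 15.3 CPM in mural-like and 15.9 CPM in astrocyte-like nuclei. Rela had means of 40.6 CPM in endothelial-like and 36.9 CPM in mural-like nuclei, close to the 38.4 CPM of microglia-like nuclei, with ranges of 13.3 to 105.2 and 15.1 to 79.9 CPM over mice. Nfkb1 had means of 272, 165 and 240 CPM in endothelial, mural and fibroblast-like nuclei, Ikbkb 93.5, 77.2 and 69.0 CPM, and Relb 26.5, 25.2 and 24.96 CPM. Rel, with UMIs pooled over the mice, stood at 19.0, 10.7 and 21.7 CPM in the same order, and at 93.6 CPM in microglia-like nuclei.

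Free RNA from broken cells can carry microglial transcripts into other droplets. The 12 microglial markers were found in the other types at a median of 0.122% (excitatory) to 1.07% (endothelial-like) of their microglial level, and at no more than 4.08% for any marker. The members other than Nfkb2 stood at 4.42% (Relb in inhibitory neuron-like nuclei) to 111% (Chuk in oligodendrocyte-like nuclei) of their microglial level. Nfkb2 stood at 0.678 to 37.6%, so part of its values outside microglia lay within the range of the markers.

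**Figure D4:**
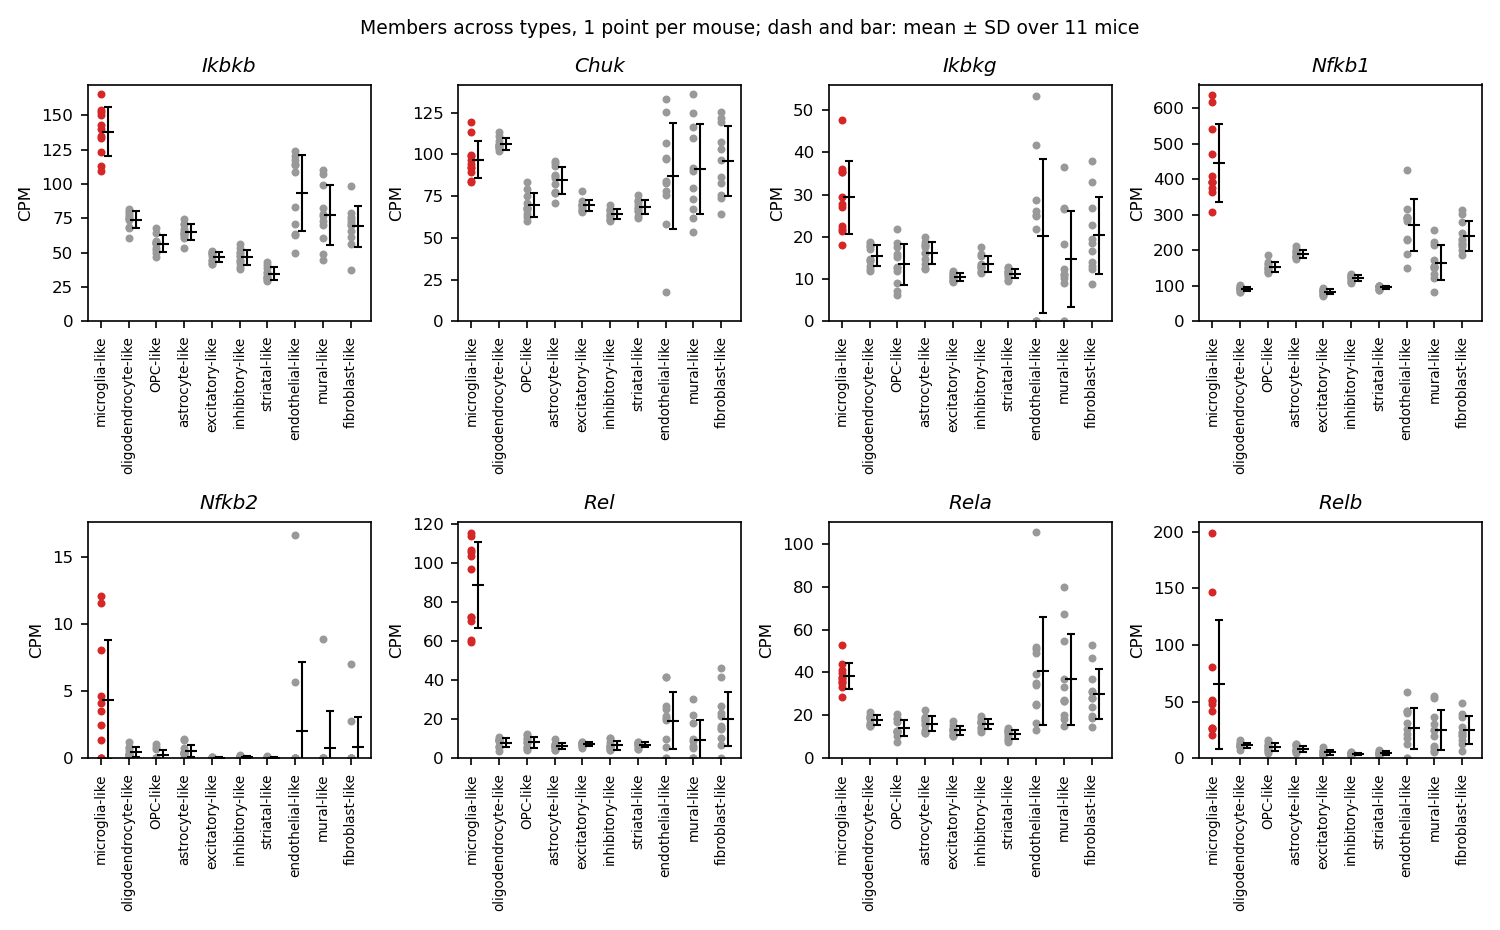
Level of each of the 8 genes in 10 types (CPM, linear axes from 0), 1 point per mouse, with the mean and SD over 11 mice and microglia-like nuclei in red. Microglia-like nuclei hold the highest mean of the 7 larger types for all but Chuk, and the 3 vascular types to the right spread widely. How many of all genes are highest in microglia-like nuclei was not counted.

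The patterns most like each member were sought over 77 points, 7 types in 11 mice, among 6939 genes with a mean of at least 20 CPM, by Pearson's r of log2 CPM. These points share mice and libraries, so the values describe likeness only. Ikbkb was most like Slc29a3 (r = 0.95), Sh3glb1 and Scamp2, Chuk most like Itsn2 (0.88), Bcl2l1 and Tmem63a, and Ikbkg most like Tmem135 (0.86), Taok1 and Fkbp15. Nfkb1 was most like Pag1 (0.96), Dock4 and Plcg2, Rel most like Mef2a (0.95), Anapc15 and Snx5, Rela most like Lgmn (0.89) and Stau1, and Relb most like Adam17 (0.91), Unc93b1 and Tgfbr1. For Nfkb2, with a mean of 0.837 CPM over the points, the highest r was 0.73, with Alkbh3, followed by Ctsz and Eif3h.

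The promoters of the members were searched for the κB consensus, the 10-letter motif bound by NF-κB dimers, on both strands. RefSeq windows (GRCm38.p6) of 250 bases before a start were listed for 5 members, 10 windows in all, and were not listed for Ikbkb, Nfkb1 and Relb. The consensus was found in 4 of the 10 windows, the single window of Rel and all 3 of Nfkb2, and in 7.25% of 32851 windows of the table. The windows of Chuk, Rela and Ikbkg held no match to these letters. Stretches of 30 bases around matches of Rel and Nfkb2 are shown 5′ to 3′ on the gene's strand, with matched letters in capitals (where 11 letters are in capitals, 2 matches overlap by all but 1 letter). They are chr11:23771042-23771071 (minus strand) for Rel, whose first matched letter lies 92 bases before the start, and chr19:46304688-46304717, chr19:46305449-46305478 and chr19:46305695-46305724 (plus strand) for Nfkb2, with the first matched letter 39, 236 and 225 bases before the respective start. A further match 11 bases before the first Nfkb2 start is not shown.
Rel: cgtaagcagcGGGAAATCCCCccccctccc
Nfkb2 first start: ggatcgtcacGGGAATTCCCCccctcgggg
Nfkb2 second start: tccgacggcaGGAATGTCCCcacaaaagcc
Nfkb2 last start: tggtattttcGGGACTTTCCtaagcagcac
A match is a description of the letters and no evidence of binding in these nuclei. Of these 2 genes, Rel did not pass the test between genotypes and Nfkb2 passed with no filter on counts in active IKKβ against P301S and Ikbkb+/+ mice but not against knockout mice.

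Outside macrophages Cx3cr1, and with it the Cre, is little used in the brain, while all P301S+ mice carry tau. In the 9 other types together, 55 tests of a member in a type were made for each comparison. For P301S 0 of 55 were called, where 0.0115% of all tests were, for the knockout 0, where 0% were, for active IKKβ 0, where 0.00313% were, and for the mean of the 3 P301S+ groups against Ikbkb+/+ mice 0, where 0.0156% were. At an unadjusted p under 0.05 the counts were 0, 3, 0 and 0 of 55, where 3.87, 8.28, 5.45 and 5.31% of all tests were, and with DESeq2 0 members were called in each. The lowest p was that of Ikbkg in oligodendrocyte-like nuclei in the knockout comparison (log2 fold change -0.57 ± 0.19, adjusted p = 0.2996), where its level was 14.3, 18.8, 14.5 and 14.7 CPM in Ikbkb+/+ mice, 17.7, 18.6 and 17.7 CPM in P301S mice, 11.9 and 12.5 CPM in knockout mice, and 17.2 and 12.99 CPM in active IKKβ mice. The knockout mice were the lowest of the 11, by less than the test asks for over all genes.

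Whether a genotype difference in microglia-like nuclei differed from that in excitatory neuron-like nuclei of the same mice was tested by the interaction of type and genotype. Of 8 members, 1 (Relb) was called for active IKKβ against P301S mice, where 1.05% of genes were, 1 (Relb) for active IKKβ against knockout mice, where 1.19% were, 1 (Relb) for P301S, where 0.283% were, and 0 for the knockout, where 0.0653% were (the lowest adjusted p, 0.540, was that of Nfkb2 on few UMIs). The Relb differences between types were 1.13 (adjusted p = 0.00668), 1.76 (adjusted p = 3.66e-06), 1.26 (adjusted p = 0.0132) and, for the knockout, -0.63 (adjusted p = 0.761). In excitatory neuron-like nuclei Relb was at 3.46 and 3.15 CPM in the floxed-line and 7.15 and 10.4 CPM in the active-line Ikbkb+/+ mice, 4.19, 3.32 and 4.91 CPM in P301S mice, 4.28 and 6.49 CPM in knockout mice, and 6.26 and 5.86 CPM in active IKKβ mice. The active-line Ikbkb+/+ mice were the highest of the 11 there. Against astrocyte-like nuclei the interaction was 1.75 for active IKKβ (adjusted p = 0.00580) and 2.23 against knockout mice (adjusted p = 0.000783), and that of P301S, 0.55, did not pass (adjusted p = 0.904).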

How the data were processed

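Nuclei from frozen cortex were sequenced with the 10x Chromium 3′ v3 kit. The authors aligned the reads to mm10 with Cell Ranger 3.1.0, with Seurat 3.0 also in their processing notes, and deposited raw UMI counts per gene and barcode for each of 11 mice, read here as they stand. Barcodes were dropped under 300 or over 8000 genes or over 5% mitochondrial UMIs (112539 of 114118 remained), and 9474 (8.42%) called as doublets by simulated neighbours were left out. Clusters (Leiden, resolution 0.1, 15 components, 21 clusters) were named from fixed marker lists, with the 8 genes kept out. Counts were summed per mouse and type and scaled to CPM of that sum.

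Sums were tested with edgeR 4.0.16 in R 4.3.3 (quasi-likelihood, TMM, filterByExpr, 1 term per genotype, all 11 mice), with Benjamini-Hochberg adjustment over all genes, after tests on simulated data, and with DESeq2 1.42.0 as an alternative. Calls needed an adjusted p under 0.05 and an absolute log2 fold change over 0.1. Levels between types used log2 CPM with a prior count of 2 scaled to each sum (0.205 CPM). These tests were limited to the 7 types with the most nuclei after depth was seen. The genes, lists and tests were chosen with earlier results of these data known. All 8 members are named, with 9 pathway genes named throughout and any other called (up to 8 by size). Where nothing says that samples differ beyond the mouse, p-values measure the spread between these mice, and 4 groups of 2 to 4 mice limit what can be called.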

Additional observations from a re-analysis of the deposited data

Results flagged for a closer look

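In groups of 4 mice, 56 sets of values were looked at for a mouse that stood apart from the other 3 by Dixon's ratio, and 4 did, where chance gives about 1 in 20. Ikbkb in striatal-like nuclei was at 40.8 CPM in Ikbkb+/+ replicate 4 and at 29.6 to 31.5 CPM in the other 3 mice of the group. Ikbkg in oligodendrocyte-like nuclei was at 18.8 CPM in Ikbkb+/+ replicate 2 and at 14.3 to 14.7 CPM in the others. Nfkb1 in microglia-like nuclei was at 410 CPM in Ikbkb+/+ replicate 4 and at 391 to 393 CPM in the others, a gap that is small beside the level. Rela in OPC-like nuclei was at 18.9 CPM in Ikbkb+/+ replicate 4 and at 12.4 to 12.9 CPM in the others.

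For Relb the difference between genotypes was larger in microglia-like than in excitatory neuron-like nuclei of the same mice, by 1.26 on the log2 scale for P301S, 1.13 for active IKKβ against P301S mice and 1.76 for active IKKβ against knockout mice, each by an edgeR interaction test. The P301S value includes a lower level in excitatory neuron-like nuclei of P301S mice (mean 4.14 CPM) than of Ikbkb+/+ mice (6.03 CPM). The interaction was not fitted without a mouse. Against astrocyte-like nuclei the P301S value was 0.55 and did not pass (adjusted p = 0.904).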

How the results depend on the processing

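Relb in active IKKβ against Ikbkb+/+ mice kept its direction and its call under all 10 alternatives and in all 11 fits without a mouse. Counts of called genes under the alternatives, in fits without a mouse and with the replicate block stand without the share of all genes called. A change in such a count is therefore not read as one of these genes alone. Where counts moved by over 1.5 times the cause was not tested, other than that controls of the same line leave 1 P301S mouse for the active line, its spread being taken from the other groups. For active IKKβ against knockout mice this alternative changes the quantity, to the difference between the 2 differences from each line's P301S mice. Called members in active IKKβ against P301S mice (1) became 3 with no filter on counts and 0 with controls of the same line. Against Ikbkb+/+ mice (2) they became 1 with line as a covariate and 1 with doublets kept, and against knockout mice (1) they became 2 with no filter and 0 with line or age, and were 0 for the difference of differences. Pathway genes that rose in active IKKβ against P301S mice (8) became 4 with DESeq2, 4 with line and 2 with same-line controls, and against knockout mice (9) they became 5 with DESeq2, 2 with line and 2 with age, and were 0 for the difference of differences. The 1 that fell in these comparisons became 0 with line, with age, with doublets kept and with same-line controls (for knockout mice the difference of differences). In the P301S comparison pathway genes that rose (0) became 3 with no filter, 1 with line and 1 with same-line controls. Members whose P301S difference depended on the type (1) became 0 against astrocyte-like nuclei, and the Relb share difference of active IKKβ mice (10.2 points) became 20.1 when thinned to 2000 UMIs and 23.5 unthinned. At 2000 UMIs P301S replicate 1 kept 14 nuclei, 0 of them with Relb, and unthinned shares carry the difference in depth between the groups.

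Fits without a mouse gave 0 to 2 called members in active IKKβ against P301S mice, 1 to 2 against Ikbkb+/+ mice and 1 to 2 against knockout mice, 4 to 9, 6 to 11 and 3 to 10 pathway genes that rose in the same order, and 0 to 1 that fell against P301S and knockout mice. A lone remaining mouse of a group was assumed to vary like the others. Among differences that did not pass, signs turned in these fits for Ikbkb (-0.0399 to 0.0738), Nfkb1 (-0.11 to 0.20) and Rel (-0.0463 to 0.22) for P301S, for Chuk (-0.0410 to 0.13), Nfkb1 (-0.48 to 0.14) and Relb (-1.13 to 0.0772) for the knockout, and for Chuk (-0.0926 to 0.0843), Ikbkg (-0.0376 to 0.34) and Rela (-0.14 to 0.34) for active IKKβ against P301S mice. Ikbkb for P301S was -0.00381 with a marker gate. For the knockout, Chuk was -0.12 with age, -0.0325 with same-line controls and -0.0114 with doublets kept, Ikbkg 0.0611 with age, and Nfkb1 0.11 and Relb 0.0829 with same-line controls. Chuk for active IKKβ was 0.0110 with no filter, 0.00210 with age, 0.0489 with same-line controls and 0.0418 with a marker gate.

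Whether the replicate numbers of the titles pair the mice could not be settled from the counts. The deviations of 22 same-numbered pairs correlated at -0.08 to 0.14, with 1 over 0.1. In a group of 2 mice the deviations from the group mean are mirror images, so these correlations cannot exclude pairing. With the replicate block 1, 2 and 1 members were called in active IKKβ mice against P301S, Ikbkb+/+ and knockout mice, with 7, 10 and 9 pathway genes that rose, 0 that fell against P301S mice, and an Ikbkb difference for P301S of -0.0119. Of the named genes, the block ended the calls of Ikbke (adjusted p = 0.0973) and Tnfrsf11a (0.0645) against P301S mice and of Irak2 (0.0591) against Ikbkb+/+ mice. Fits without a mouse were not run for endothelial, mural and fibroblast-like nuclei, and the marker gate gave no value for striatal, endothelial, mural and fibroblast-like nuclei. Depth limits Nfkb2 (60 UMIs in all microglia-like nuclei) most.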
